A study of Mus musculus with 10 samples.

Results

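The 10 genes described here act in cholesterol efflux and in the response to the liver X receptors (LXR). They were taken by symbol from the deposited table of regenerating mouse liver, where each of the 10 had 1 row among 23847, and all 10 reached a mean of 1 FPKM over the 6 libraries, as did 10956 rows in all. FPKM counts fragments for each kilobase of a transcript relative to all those mapped, so levels can be compared between genes of different length. The genes were Nr1h3, Nr1h2, Abca1, Abcg1, Abcg5, Abcg8, Abcb4, Mylip, Scarb1 and Lpcat3.

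Cells that hold more cholesterol than they need turn part of it into oxysterols, which bind LXR-alpha and LXR-beta. These nuclear receptors pair with a retinoid X receptor (RXR) on DNA and switch on genes that move cholesterol out of the cell, limit its uptake and remodel membrane lipids. In the liver the same genes load cholesterol onto nascent high-density lipoprotein (HDL) and pass sterols and phospholipid into bile.

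The KO group was Arid1a Fl/Fl; Alb-cre, in which Cre expressed from an albumin promoter deletes the floxed Arid1a gene in hepatocytes, and the WT group was Arid1a Fl/Fl without Cre, so both groups carried the floxed allele. The protein ARID1A belongs to SWI/SNF, a complex that remodels chromatin. Livers of both groups (3 KO and 3 WT libraries) were taken 40 h after partial hepatectomy, the removal of most of the liver, from mice of mixed C57/B6 and 129 background aged 90 postnatal days. A further 4 libraries from before hepatectomy, 2 of each genotype, were not analysed here. The albumin promoter is active in hepatocytes and their precursors, and Arid1a was not measured by cell type here. The labels leave unstated if the libraries were from different mice, so p-values reflect the spread among these libraries, which may be technical.

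Read numbers were not given in the sources used here, so the depth is unknown, and FPKM summed to between 409142 and 495209 per library. Arid1a was 4.41, 5.57 and 6.15 FPKM in KO replicates 1 to 3, against 8.68, 8.45 and 8.49 FPKM in WT replicates 1 to 3, and values are given in that replicate order throughout. Every KO library lay below every WT library, with a log2 difference of -0.59 (SE 0.15) that missed the threshold (limma adjusted p = 0.207). Hepatocyte markers such as Alb and Apoa1 summed to between 31901 and 41483 FPKM over 8 genes in KO and between 35226 and 41474 FPKM in WT, while 7 lymphocyte markers summed to at most 0.821 FPKM in KO and 1.2 FPKM in WT. Alb alone ran from 16226 to 29437 FPKM over the libraries. Serpina1c, picked with its values in view, was 2096, 1233 and 1997 FPKM in KO, against 2231, 2502 and 2619 FPKM in WT (limma adjusted p = 0.402). It lay wholly lower in KO, as did 5.44% of all tested genes, and 4 of the 8 hepatocyte markers had log2 differences above 0. KO replicate 2 stood apart from the other KO libraries in 8 proliferation markers, whose FPKM summed to 212, 8.89 and 343 in KO against 11.3, 5.95 and 31.0 in WT. The median log2 difference of all tested genes, KO minus WT, was 0.15 as deposited.

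None of the 10 genes passed the test of KO against WT, in which 0.119% of all tested genes were called, 0.0183% higher and 0.10% lower in KO (2 and 11 genes, or 0 and 13 after median-of-ratios rescaling). The test was limma on log2(FPKM + 1), with calls at a Benjamini-Hochberg adjusted p under 0.05 over all 10956 genes. Abca1, the main exporter of cholesterol to lipid-poor apolipoprotein A-I, and Mylip, a ubiquitin ligase that limits the uptake of lipoprotein cholesterol, were lower in every KO library than in every WT library. The receptors, the canalicular exporters, Abcg1, Scarb1 and Lpcat3 overlapped between the genotypes. Genes that lay wholly lower in KO made up 5.44% of all tested genes, and 2 of the 10 did. Wholly higher in KO lay 16.7% of all tested genes and 0 of the 10. After median-of-ratios rescaling the same 2 lay lower, where 9.67% of all tested genes did. At an unadjusted p under 0.05 the same 2 genes were lower and 0 were higher, where 3.99% of all tested genes were lower and 11.2% higher. Abca1 missed an unadjusted p under 0.05 without KO replicate 3 (limma unadjusted p = 0.0604, adjusted p = 0.479) and without WT replicate 3 (limma unadjusted p = 0.0681, adjusted p = 0.368), and without KO replicate 3 Abcg5 was higher at that level. The 10 genes had a median log2 difference of 0.05, and 7631 of all tested genes (69.7%) lay above 0, as did 7 of the 10. After median-of-ratios rescaling the median was -0.08, and 2 of the 10 lay above 0, where 52.9% of all tested genes did. With 1 library left out the median ran between -0.04 (without KO replicate 2) and 0.18 (without KO replicate 3), and between 4 and 8 of the 10 lay above 0. Relative to the median of all genes, 2 of the 10 (Nr1h3 and Abcg5) lay above and 8 below, but 6 lay above without KO replicate 3, 4 without WT replicate 2 and 1 without WT replicate 3. Since whole liver was measured, fewer cells of a type and less RNA per cell cannot be told apart.

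**Figure D1:**
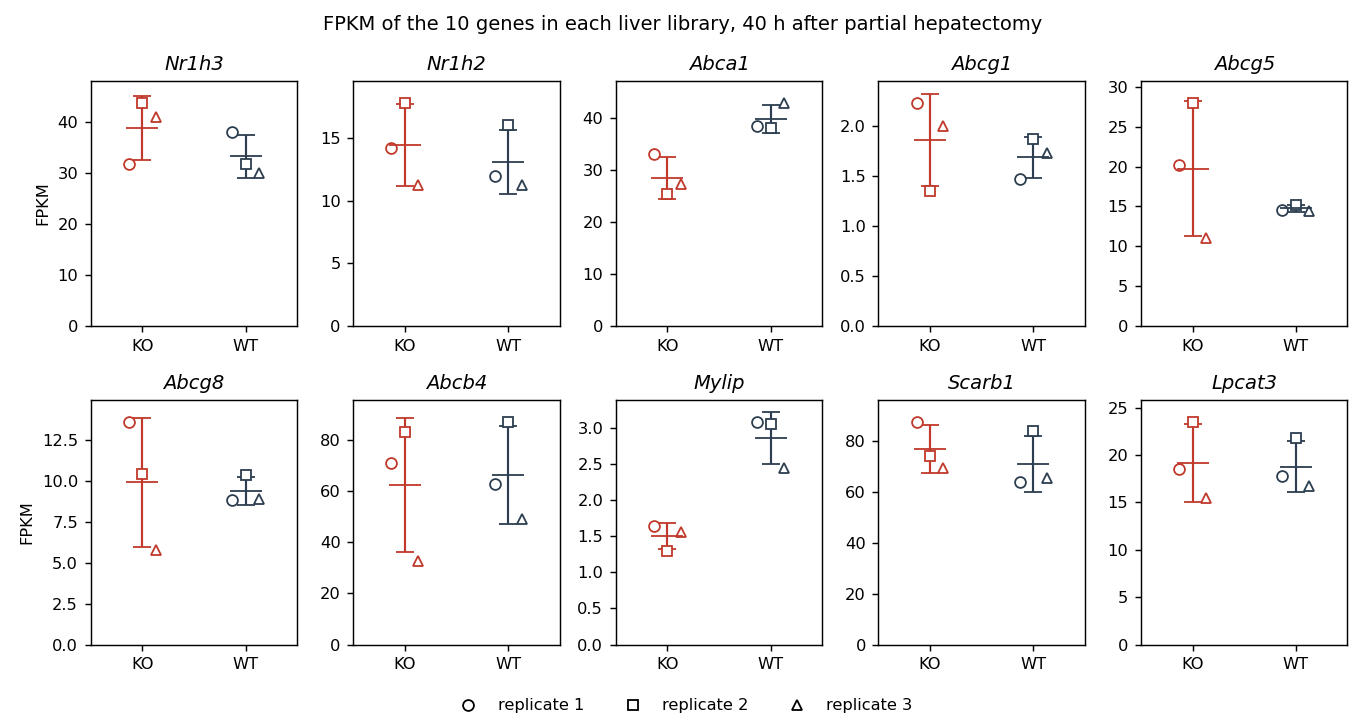
FPKM of each of the 10 genes (vertical axes, from 0) in the 3 KO and 3 WT libraries, with symbols for replicate number, and a horizontal mark and bar for the mean and SD of each genotype. Abca1 and Mylip are the panels in which the KO points (25.3 to 33.1 and 1.30 to 1.65 FPKM) all lie below the WT points (38.2 to 42.9 and 2.45 to 3.09 FPKM).

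Levels differed widely among the 10 genes. On the FPKM scale, Scarb1 had the highest mean over the 6 libraries (73.9 FPKM), followed by Abcb4 (64.4), Nr1h3 (36.1), Abca1 (34.2), Lpcat3 (19.0), Abcg5 (17.3), Nr1h2 (13.8), Abcg8 (9.66), Mylip (2.18) and Abcg1 (1.77). Neighbours in this order had overlapping ranges over the libraries except Abca1 and Lpcat3, and Abcg8 and Mylip. Nr1h3 was above Abca1 in 2 of 6 libraries, and Mylip was above Abcg1 in 3 of 6, the WT libraries.

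LXR-alpha, encoded by Nr1h3 (chromosome 2, 91184061 to 91195116, mm10), is the form most abundant in liver. It was 31.7, 43.7 and 41.0 FPKM in KO livers, against 38.0, 31.8 and 30.1 FPKM in WT livers. The groups overlapped, with KO replicate 1 inside the WT range and the other KO libraries above it. The log2 difference was 0.21 (SE 0.19, 95% interval -0.23 to 0.65, limma adjusted p = 0.597).

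LXR-beta, encoded by Nr1h2 (chromosome 7, 44549633 to 44553923), is expressed in most tissues. Its level was 14.2, 17.8 and 11.3 FPKM in KO livers, against 12.0, 16.1 and 11.3 FPKM in WT livers, with replicate 2 the highest of each genotype. KO minus WT on the log2 scale gave 0.12 (interval -0.39 to 0.63). Nr1h3 exceeded Nr1h2 in every library, by 2.23, 2.46 and 3.64 times in KO and by 3.16, 1.98 and 2.68 times in WT.

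Abca1 (chromosome 4, 53030789 to 53159895) was 33.1, 25.3 and 27.3 FPKM in KO livers, against 38.4, 38.2 and 42.9 FPKM in WT livers. All 3 KO libraries were low, all 3 WT libraries high, and the groups did not overlap. The mean was 28.6 ± 4.04 FPKM in KO and 39.8 ± 2.64 FPKM in WT (SD, n = 3 each), so that the KO mean was 0.717 of the WT mean. The log2 difference was -0.47 (SE 0.16, interval -0.86 to -0.09, limma unadjusted p = 0.0231, adjusted p = 0.287). It lay 0.62 below the median of all genes, and after median-of-ratios rescaling of the libraries it was -0.62 (limma adjusted p = 0.221).

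Mylip (chromosome 13, 45389742 to 45411940), also called Idol, is a direct LXR target in several cell types. It was 1.65, 1.30 and 1.56 FPKM in KO livers, against 3.09, 3.05 and 2.45 FPKM in WT livers. All KO libraries were low, all WT libraries high, and the gap between the groups was wider than the range within either. The mean was 1.5 ± 0.181 FPKM in KO and 2.87 ± 0.356 FPKM in WT (SD, n = 3 each), a WT mean 1.91 times the KO mean. On the log2(FPKM + 1) scale, which understates changes near 1 FPKM, the difference was -0.63 (SE 0.16, interval -0.99 to -0.26, limma unadjusted p = 0.00529, adjusted p = 0.206). With a pseudocount of 0.1 FPKM it was -0.89.

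The promoters of these 2 genes are shown because they were the ones to lie apart between the genotypes. Each window runs from 250 bases before to 50 bases after a transcript start, and 8 of the 10 genes were matched to windows of RefSeq (GRCm38.p6, the assembly of mm10), all but Abcg1 and Scarb1. The sequences are on the strand of the gene. Capitals mark a TATAAA sequence and, in Abca1, a pair of LXR half-sites.
Abca1, minus strand of chr4:53159846-53160145: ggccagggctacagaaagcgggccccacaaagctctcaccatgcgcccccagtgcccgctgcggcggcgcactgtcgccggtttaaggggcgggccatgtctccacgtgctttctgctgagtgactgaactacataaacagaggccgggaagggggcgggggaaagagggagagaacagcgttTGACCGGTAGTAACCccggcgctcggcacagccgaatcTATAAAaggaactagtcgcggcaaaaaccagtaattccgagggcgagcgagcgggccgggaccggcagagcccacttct
Mylip, plus strand of chr13:45389492-45389791: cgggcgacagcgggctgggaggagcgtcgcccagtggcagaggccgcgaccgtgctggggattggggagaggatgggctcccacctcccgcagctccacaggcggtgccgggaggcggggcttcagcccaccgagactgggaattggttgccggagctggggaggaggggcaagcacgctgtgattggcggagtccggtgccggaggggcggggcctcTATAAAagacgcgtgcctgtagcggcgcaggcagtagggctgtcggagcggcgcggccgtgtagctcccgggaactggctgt

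The capitals 67 to 53 bases before the Abca1 start read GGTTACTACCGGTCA on the opposite strand. They hold 2 copies of GGTNA on the same strand, with 5 bases between these 5-letter cores. A whole half-site has a further base before its core, so the gap between whole half-sites is shorter than 5 bases. LXR and RXR bind direct repeats of this kind. This pattern was searched on both strands, with N for any base, and was found in 0.718% of 32851 windows of all genes. A narrower form, GGTTA and GGTCA with the same spacing and wholly contained in the first pattern, matched the same bases and was found in 0.0487% of windows. It spells the half-sites of the Abca1 match, so its match there was fixed by its letters. No window of the other 7 matched genes held either pattern. TATAAA began 29 bases before the Abca1 start and 32 bases before the Mylip start on the strand of the gene. Between 40 and 11 bases before the start it stood in 2.08% of all windows, and on either strand anywhere in the window in 13.6%. The motifs were chosen after the values were seen, and a match is only a description of the letters.

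Abcg1 (chromosome 17, 31057694 to 31117981) encodes a transporter that passes cholesterol to mature HDL, best known from macrophages. It was 2.22, 1.35 and 2.0 FPKM in KO livers, against 1.47, 1.87 and 1.72 FPKM in WT livers. The KO libraries were both the highest and the lowest of the 6, and the log2 difference was 0.08 (interval -0.36 to 0.52). Macrophages are resident in liver as Kupffer cells and also express Abca1 and Nr1h3. The 12 Kupffer cell and macrophage markers summed to between 125 and 206 FPKM in KO and between 119 and 171 FPKM in WT, and all were above 0 in some library. The most abundant were Cd5l (31.9 ± 15.1 FPKM in KO, 26.9 ± 3.21 FPKM in WT) and C1qb (23.0 ± 6.45 FPKM in KO, 23.2 ± 3.96 FPKM in WT; SD, n = 3 each). Marco, picked with its values in view, was the marker whose groups did not overlap, at 16.9, 27.6 and 11.8 FPKM in KO and 9.84, 8.99 and 5.11 FPKM in WT. Of all tested genes, 16.7% lay wholly higher in KO. The part of macrophages in the levels of Abca1, Abcg1 or Nr1h3 was not tested.

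The proteins of Abcg5 and Abcg8 together form the canalicular transporter that secretes cholesterol and plant sterols into bile. They lie head to head on chromosome 17, Abcg5 at 84658234 to 84682923 and Abcg8 at 84683131 to 84700333, with 207 bases between the rows of the table. Between their RefSeq starts lie 109 bases, and 209 bases of the Abcg5 window also belong to that of Abcg8. The Abcg5 window is shown for this shared stretch, on the strand of Abcg5. Capitals mark TATAAA, which begins 84 bases before the Abcg5 start and lies 31 to 26 bases before the Abcg8 start, there on the opposite strand.
Abcg5, minus strand of chr17:84682962-84683261: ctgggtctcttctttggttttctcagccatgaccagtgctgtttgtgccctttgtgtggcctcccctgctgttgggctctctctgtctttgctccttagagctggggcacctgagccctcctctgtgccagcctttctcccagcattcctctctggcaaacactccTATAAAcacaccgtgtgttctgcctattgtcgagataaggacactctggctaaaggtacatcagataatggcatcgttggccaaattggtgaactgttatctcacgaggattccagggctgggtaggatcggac
RefSeq also gives a second start of Abcg8 inside the Abcg5 gene, and strandedness was a detail not given in the sources used here, so reads from transcripts of both genes there cannot be told apart.

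Abcg5 was 20.3, 27.9 and 11.1 FPKM in KO livers, against 14.6, 15.2 and 14.5 FPKM in WT livers. The WT libraries were nearly equal, with a coefficient of variation of 2.63%, while the KO libraries spread on both sides of them, with 42.7%. Between genotypes the log2 difference was 0.31 (SE 0.31, interval -0.43 to 1.04, limma adjusted p = 0.641). Without KO replicate 3 it was 0.66 (limma unadjusted p = 0.0153, adjusted p = 0.397), and without KO replicate 2 it was 0.02.

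Abcg8 was 13.6, 10.4 and 5.77 FPKM in KO livers, against 8.86, 10.4 and 8.92 FPKM in WT livers. Again KO replicate 3 was the lowest of all 6, and a KO library was the highest. On the log2 scale the genotypes differed by 0.01 (SE 0.28, interval -0.66 to 0.68). Within a library the ratio of Abcg5 to Abcg8 does not depend on scaling, and it was 1.49, 2.68 and 1.92 in KO, against 1.65, 1.46 and 1.62 in WT. Its mean was 2.03 ± 0.606 in KO and 1.58 ± 0.0999 in WT (SD, n = 3 each). The log2 difference of the ratio was 0.32 (exact two-sided permutation p = 0.3 over 20 assignments, where the smallest possible is 0.1), and without KO replicate 2 it was 0.10.

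Abcb4 (chromosome 5, 8893721 to 8959226), also called Mdr2, moves phosphatidylcholine into bile, where it protects bile ducts from bile acids and carries cholesterol. It varied most of the 10 genes between libraries, by 2.66 times. The level was 71.2, 83.4 and 32.8 FPKM in KO livers, against 63.0, 87.2 and 49.0 FPKM in WT livers. In both genotypes replicate 2 was highest and replicate 3 lowest, and the groups overlapped. The log2 difference was -0.15 (SE 0.39, interval -1.07 to 0.77), and it was 0.25 without KO replicate 3 and 0.06 without WT replicate 2.

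Scarb1 (chromosome 5, 125277087 to 125341094) encodes SR-B1, the receptor through which hepatocytes take up cholesteryl ester from HDL. It was the steadiest of the 10, with 87.4, 73.9 and 69.4 FPKM in KO livers, against 63.6, 83.7 and 65.5 FPKM in WT livers, a 1.37-fold range over the 6 libraries. Its log2 difference was 0.12 (interval -0.32 to 0.56).

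Lpcat3 (chromosome 6, 124663104 to 124704716), an LXR target, puts polyunsaturated fatty acids into membrane phospholipids. It was 18.5, 23.5 and 15.4 FPKM in KO livers, against 17.7, 21.8 and 16.7 FPKM in WT livers. The means were 19.2 ± 4.08 FPKM in KO and 18.7 ± 2.70 FPKM in WT (SD, n = 3 each), with a log2 difference of 0.02 (interval -0.45 to 0.49). Its row overlaps that of Emg1, which leaves it uncertain how reads were split between the 2 genes. The other 9 genes overlap no row of the table.

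**Figure D2:**
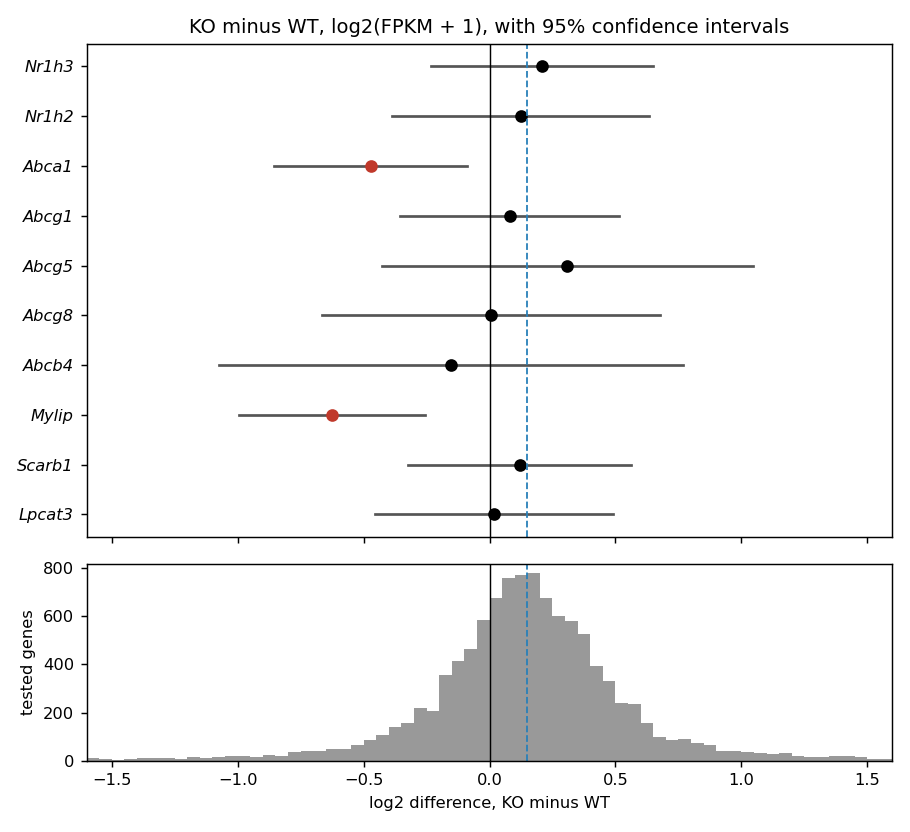
Log2 difference, KO minus WT, of log2(FPKM + 1) for each of the 10 genes with its 95% confidence interval (upper panel), and the same difference for all tested genes as a histogram (lower panel, 266 genes lie outside the axis at 1.6 on either side). Red points mark genes whose KO and WT libraries did not overlap, the solid line is 0 and the dashed line is the median of all tested genes, 0.15. The intervals of Abca1 and Mylip lie below 0, and the other 8 contain it.

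The libraries within a genotype were ordered alike for several of the genes. Abcb4, Abcg5, Nr1h2 and Lpcat3 each ran from replicate 2, the highest, through replicate 1 to replicate 3 in KO and in WT, although the WT values of Abcg5 were close together. The summed FPKM of the 8 proliferation markers ran the other way in both genotypes, with replicate 3 highest and replicate 2 lowest. Ube2c and, picked with its values in view, Aurkb singly had another order in WT. Such a reversed order was found for 4 of the 10 genes and for 4.0% of all tested genes, and the same order as the summed markers for 0 of the 10 and 6.27% of all. After rescaling, the count was again 4 of 10, but the share of all tested genes was not counted there. This comparison was chosen after the values were seen, and the part of proliferation in these levels was not tested. Abca1 and Mylip had neither the order of the summed markers nor its reverse in both genotypes.

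**Figure D3:**
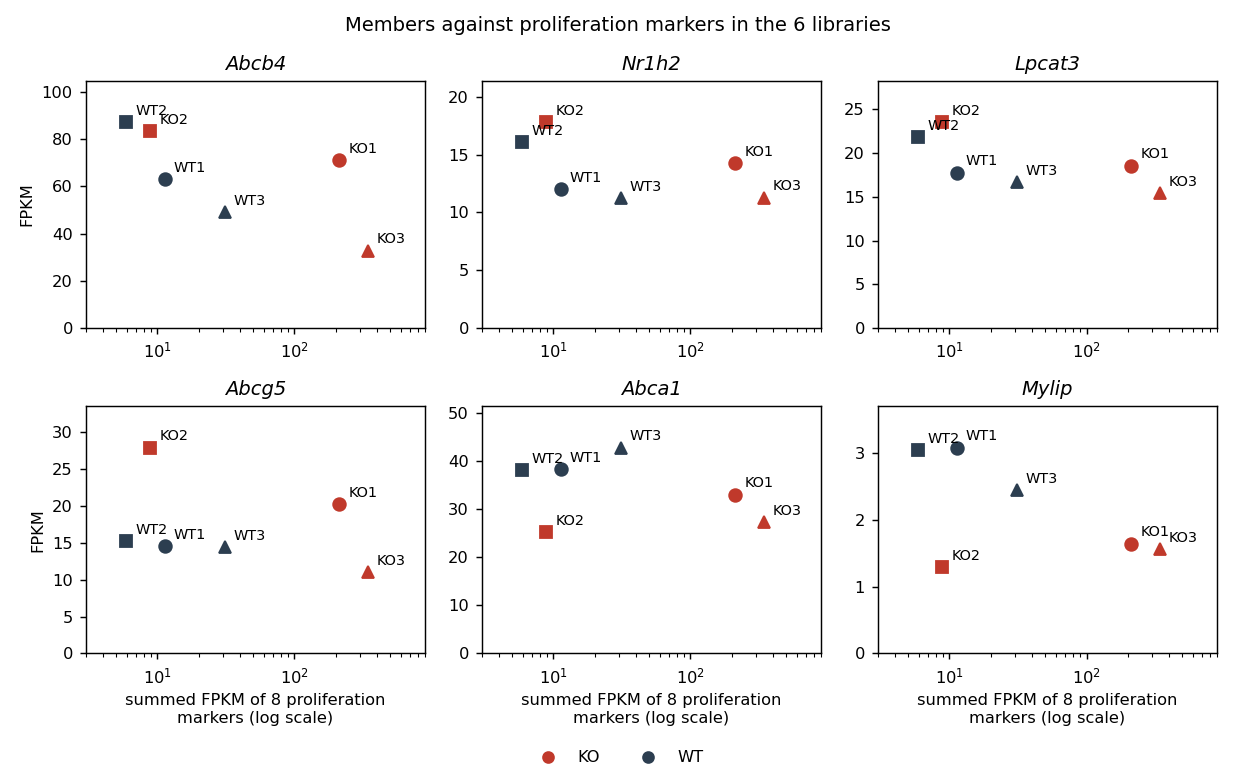
FPKM of 6 of the genes (vertical axes, from 0) against the summed FPKM of 8 proliferation markers (log scale) in the 6 libraries, labelled by genotype and replicate. Abcb4 lies between 32.8 and 87.2 FPKM with its lowest KO and WT values where the markers are highest. Abca1 and Mylip are lower in all 3 KO libraries than in every WT library. KO replicate 2 stands at 8.89 on the horizontal axis.

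Of 10155 tested genes, leaving out symbols of predicted genes, those whose pattern over the 6 libraries was most like that of Mylip were Hexa (Pearson r = 0.993), Trip4 (r = 0.990) and Srp14 (r = 0.989), all on log2(FPKM + 1). These are the highest of many correlations over 6 libraries that share scaling and genotype, and they are given as a description. Hexa, which encodes the alpha subunit of lysosomal hexosaminidase, was 4.67, 3.83 and 4.22 FPKM in KO livers, against 12.7, 12.3 and 8.04 FPKM in WT livers. For Hexa the log2 difference was -1.18 (SE 0.20, limma adjusted p = 0.128).

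The partners and coregulators of LXR showed no call. Of 9 tested genes of this kind, 0 passed in either direction and 0 had an unadjusted p under 0.05, with a median log2 difference of -0.04 against 0.15 for all tested genes. Rxra, which encodes the RXR abundant in liver, was 81.2 ± 17.7 FPKM in KO and 72.1 ± 10.1 FPKM in WT (SD, n = 3 each). Nrip1, which encodes the nuclear receptor cofactor RIP140, was 3.95 ± 0.815 FPKM in KO and 4.42 ± 0.314 FPKM in WT.

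Other genes known as LXR targets did not lie on one side. Of 16, 15 were tested, 0 passed in either direction, and the median log2 difference was -0.03. At an unadjusted p under 0.05, 3 were higher in KO and 1 lower, where 11.2% of all tested genes were higher and 3.99% lower. Lpl, lipoprotein lipase, was 25.3, 10.3 and 20.2 FPKM in KO livers, against 1.61, 3.10 and 3.86 FPKM in WT livers, a log2 difference of 2.31 (SE 0.37, limma adjusted p = 0.123). Pltp, the phospholipid transfer protein of plasma, was 22.7, 14.9 and 16.5 FPKM in KO livers, against 9.5, 9.21 and 7.19 FPKM in WT livers (log2 difference 0.97, limma adjusted p = 0.164). For both genes all KO libraries lay above all WT libraries, as they did for 16.7% of all tested genes. Apoc2, the cofactor of lipoprotein lipase, was 532, 1797 and 1022 FPKM in KO and 539, 393 and 399 FPKM in WT, where KO replicate 1 overlapped the WT range.

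On the other side, Fasn and Rnf145, named after their values were seen, were the targets that lay wholly lower in KO. Fasn, fatty acid synthase, was 24.0, 8.14 and 21.2 FPKM in KO livers, against 35.4, 29.4 and 34.0 FPKM in WT livers (log2 difference -0.98, limma adjusted p = 0.309). Rnf145, a ubiquitin ligase of the endoplasmic reticulum, was 5.6 ± 1.15 FPKM in KO and 7.15 ± 0.0509 FPKM in WT (SD, n = 3 each). Srebf1, the classical lipogenic target and likewise picked with its values in view, was 12.7, 9.03 and 27.3 FPKM in KO, against 18.2, 15.0 and 37.3 FPKM in WT, with overlapping groups.

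The enzymes of oxysterol metabolism form or clear the ligands of LXR. Of 7 such genes 4 were tested, and 0 passed. At an unadjusted p under 0.05, 1 was lower, where 3.99% of all tested genes were. All 4 had log2 differences below 0, with a median of -0.66. Cyp39a1, an oxysterol hydroxylase, was 11.9, 3.32 and 10.4 FPKM in KO livers, against 18.6, 26.9 and 13.6 FPKM in WT livers, with no overlap (limma adjusted p = 0.306). Cyp7b1, which clears oxysterols in liver, was 1.0 ± 0.572 FPKM in KO and 2.13 ± 1.1 FPKM in WT (SD, n = 3 each).

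Genes of cholesterol uptake, storage and lysosomal release gave 0 calls among 12 tested, with a median log2 difference of -0.07. At an unadjusted p under 0.05, 1 was lower, where 3.99% of all tested genes were. Lrp1, a receptor for lipoprotein remnants, was 137, 133 and 124 FPKM in KO livers, against 178, 168 and 177 FPKM in WT livers, a log2 difference of -0.40 (limma adjusted p = 0.309) with no overlap. Stard4, a carrier of cholesterol in the cytosol, was 16.0 ± 5.95 FPKM in KO and 22.1 ± 4.35 FPKM in WT (SD, n = 3 each).

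Among 7 tested genes of HDL formation and remodelling 0 passed, with a median log2 difference of -0.06. At an unadjusted p under 0.05, 1 was higher and 1 lower, where 11.2% of all tested genes were higher and 3.99% lower. Apom, a carrier of sphingosine-1-phosphate on HDL, was 375 ± 45.3 FPKM in KO and 267 ± 41.9 FPKM in WT, with no overlap as deposited but an overlap after rescaling, and Apoa1, the main HDL protein and the acceptor for Abca1, was 7529 ± 2704 FPKM in KO and 5344 ± 576 FPKM in WT (SD, n = 3 each). Lipg, endothelial lipase, the gene lower at that level, was 0.182, 0.216 and 0.503 FPKM in KO livers, against 5.80, 1.22 and 1.47 FPKM in WT livers (limma adjusted p = 0.265). Its mean was 0.301 FPKM in KO and 2.83 FPKM in WT. It thus met the filter of 1 FPKM only through WT, the group where it was high. Of 7 tested genes of canalicular export and its regulation 0 passed. At an unadjusted p under 0.05, 1 (Ppara) was lower, where 3.99% of all tested genes were. The median log2 difference of the list was -0.13. This list held nuclear receptors and a transfer protein beside the exporters. Ppara, a fatty acid receptor known to act on Abcb4 in mouse liver, was 21.8, 25.5 and 18 FPKM in KO livers, against 35.2, 27.7 and 29.6 FPKM in WT livers, with no overlap (log2 difference -0.49, limma adjusted p = 0.308). Pctp, a phosphatidylcholine transfer protein, was 42.8 ± 5.20 FPKM in KO and 34.5 ± 2.62 FPKM in WT, again with no overlap as deposited but an overlap after rescaling, and Abcb11, the bile salt export pump, was 124, 56.4 and 53.4 FPKM in KO and 77.9, 130 and 96.7 FPKM in WT. Of 5 tested acyltransferases related to Lpcat3 0 passed and 0 had an unadjusted p under 0.05, with Agpat2 at 91.3 ± 29.7 FPKM in KO and 68.0 ± 6.94 FPKM in WT, Lclat1 at 12.3 ± 3.69 and 14.0 ± 1.51 FPKM, and Lpcat1 at 1.2 ± 0.508 and 0.964 ± 0.319 FPKM in KO and WT.

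**Figure D4:**
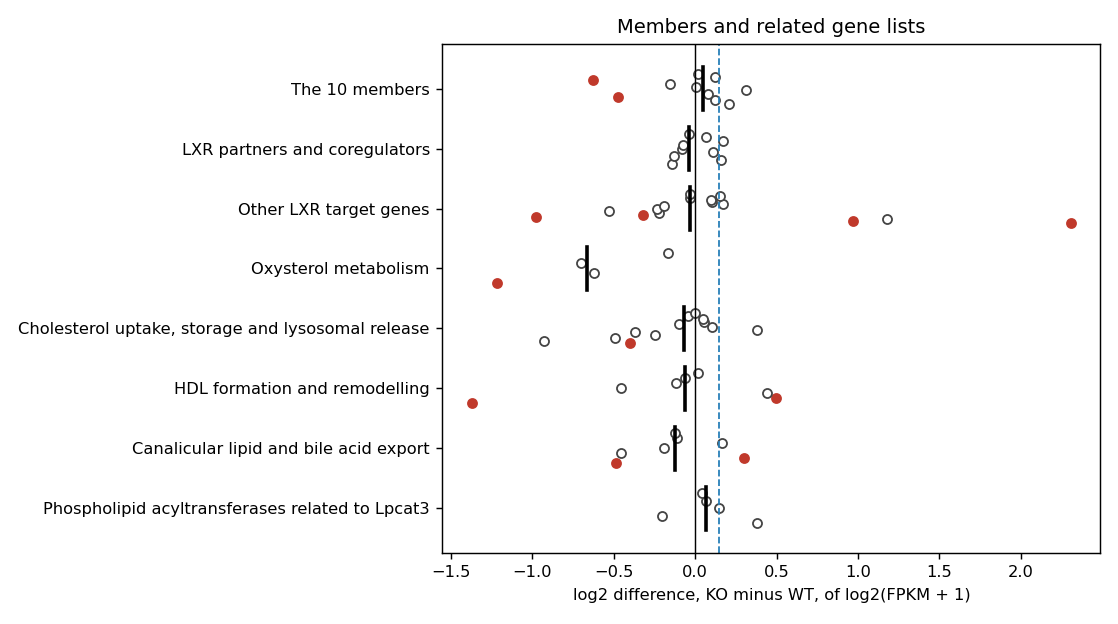
Log2 difference, KO minus WT, of each tested gene (points) of the 10 efflux and LXR genes and of 7 related lists, with the median of each list as a black bar, 0 as a solid line and the median of all tested genes (0.15) as a dashed line. Red points mark genes whose KO and WT libraries did not overlap. The median of every list plotted lies left of the dashed line, Lpl is the point farthest right at 2.31, and none of the points passed the test.

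Markers of other cells were as follows. The summed markers were between 55.6 and 83.5 FPKM in KO and between 52.2 and 79.3 FPKM in WT for sinusoidal endothelium (8 genes, led by Clec4g and Fcgr2b), between 83.4 and 134 FPKM in KO and between 105 and 117 FPKM in WT for stellate cells (7 genes, led by Dcn and Reln), and between 12.5 and 29.0 FPKM in KO and between 12.1 and 21.1 FPKM in WT for bile duct cells (6 genes, led by Spp1 and Krt19). Neutrophil markers (5 found, led by S100a8 and S100a9) summed to between 13.7 and 29.1 FPKM in KO and between 11.5 and 36 FPKM in WT. For each of these types the summed ranges of the genotypes overlapped, and none of the markers found was at 0 in all 6 libraries. Reln and, picked with its values in view, Cdh5 lay wholly higher in KO, as did 16.7% of all tested genes, although Cdh5 overlapped after rescaling. The stellate markers did not lie on one side, with log2 differences of 0.80 for Reln, -0.25 for Dcn and, picked in the same way, -0.52 for Lrat and -0.11 for Col3a1, and Lrat lay wholly lower in KO after rescaling. The part of these cells in the levels of the 10 genes was not tested.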

How the data were processed

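The 6 libraries 40 h after partial hepatectomy (3 KO, 3 WT) were analysed. The authors deposited FPKM per gene row, per the file headers. TopHat, edgeR, mm10 and mm9 stand in the submitters' processing notes with no roles, and the positions of the rows lie on mm10. FPKM divides by transcript length and library total, so very abundant transcripts that change can move every other value in that library. The rows are a filtered set by a criterion not given in the sources used here. Total reads are unknown, so no counting interval was computed.

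Of 23847 rows, 312 with the text LOWDATA in all libraries were left out. Values listed as 0.001 were set to 0. Positions were counted from 1. Rows with a mean of at least 1 FPKM over the 6 libraries were tested as log2(FPKM + 1) in limma 3.58.1 (R 4.3.3, trend = TRUE), two-sided, with genotype alone in the model, no rescaling and Benjamini-Hochberg adjustment over all rows tested. The procedure was tested on simulated data, with values drawn independently and with changes larger than those of Abca1 and Mylip. That test therefore does not show if differences of their size would be called. The ratio of Abcg5 to Abcg8 was compared by an exact permutation test. Adgre1 was matched through its synonym Emr1, and Ly6g was not matched. Promoter windows came from RefSeq GRCm38.p6.

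The 10 genes, the related lists and the tests were chosen with earlier results of these data known. Named were the 10 genes, Arid1a, up to 3 tested genes with the smallest p from each related list, the 2 most abundant genes of each marker list and the 3 genes most like the member with the smallest p. Any other gene was picked with its values in view, as the text says beside it. Some genes that the rule names are not reported here. The alternatives were median-of-ratios rescaling, quantile normalization, a pseudocount of 0.1 FPKM, no filter, a minimum mean of 5 FPKM, no trend, the replicate number as a block and each library left out.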

Additional observations from a re-analysis of the deposited data

How the results depend on the processing

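None of the 10 genes was called by limma under any of the 13 alternatives. Abca1 (-0.63 to -0.39), Mylip (-0.89 to -0.57), Nr1h3 (0.05 to 0.34) and Abcg5 (0.02 to 0.66) kept the direction of their log2 difference in all alternatives in which they were tested, with adjusted p of 0.221 to 0.579 for Abca1 and 0.161 to 0.528 for Mylip. With a minimum mean of 5 FPKM, Mylip and Abcg1 were not tested. The median of the 10 genes was -0.10 after quantile normalization, where 3 of the 10 lay above 0, and 5 of the 10 lay above the median of all genes without a filter. For the other 6 genes, with differences near 0, the sign depended on the setting and the cause was not tested. After median-of-ratios rescaling, Nr1h2 was -0.020, Abcg1 -0.016, Abcg8 -0.13, Scarb1 -0.032 and Lpcat3 -0.13. After quantile normalization, Nr1h2 was -0.054, Abcg1 -0.028, Abcg8 -0.17 and Lpcat3 -0.15. With a pseudocount of 0.1 FPKM, Abcg8 was -0.00046. With 1 library left out, the ranges were -0.030 to 0.28 for Nr1h2, -0.013 to 0.22 for Abcg1, -0.24 to 0.32 for Abcg8, -0.41 to 0.25 for Abcb4, -0.13 to 0.16 for Lpcat3 and 0.10 to 0.53 for the log2 ratio of Abcg5 to Abcg8.

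Among all tested genes, 13 were called (2 higher and 11 lower in KO). After either rescaling 0 were called higher (1322 genes in either direction at an unadjusted p under 0.05 after median-of-ratios, 1318 after quantile), and 5 were with a pseudocount of 0.1 FPKM. Without a filter 6 were called, 0 higher and 6 lower, and with a minimum mean of 5 FPKM 5 were, 0 higher and 5 lower. With 1 library left out the calls ranged from 0 (without WT replicate 1, 940 genes at an unadjusted p under 0.05) to 211 (without KO replicate 2), with 0 to 171 higher and 0 to 40 lower, and there were 1 without KO replicate 3, 2 without WT replicate 2 and 3 without WT replicate 3. With the replicate block 47 were called, 10 higher and 37 lower, no member was, and the unadjusted p of Abca1 was 0.0556 in limma. Deviations from the genotype mean correlated at -0.084, 0.155 and 0.163 between libraries of the same number, and not every library correlated best with its own number. With 3 libraries per genotype such deviations depend on each other, so these values cannot decide if the numbers pair the samples.

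Unknown depth limits most the genes near 1 FPKM, Abcg1 and Mylip.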
